A study of Mus musculus with 3 samples.

Results

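The BCL2 family decides whether the outer membrane of the mitochondrion stays closed or is opened in apoptosis. Bax and Bak1 are the effectors that form pores in that membrane, the BH3-only proteins Bad, Bid, Bbc3, Pmaip1 and Bcl2l11 switch them on or tie up their inhibitors, and Bcl2l1, Mcl1 and Bcl2 hold both kinds in check. Much of this control acts on the proteins, by binding, cleavage, phosphorylation and turnover, which RNA counts do not show, while Bax, Bbc3 and Pmaip1 are also known target genes of the transcription factor p53. The genes described here are these 10, taken by name as 2 effectors, 5 BH3-only genes and 3 anti-apoptotic genes, out of 55825 gene names in the tables. In CBTi-seq 9 of the 10 had a count and 7 had a mean level of at least 20 CPM over the groups (counts per gene, scaled so that every group has the same total), the limit below which no ratio was called. By the 3' method 8 had a count and 5 reached that limit.

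The study set L929 cells, an established mouse fibroblast line, with a knockdown of Rrm2 against control cells of the same line. Rrm2 is a subunit of ribonucleotide reductase, which makes the building blocks of DNA. The labels name neither the agent of the knockdown nor its duration nor the number of clones. CBTi-seq gave 1 sample with 10 columns named knock and 10 named control, called knock cells and control cells here because the protocol text describes single cells picked by capillary. The 3' method, which targets transcript ends, gave 1 sample labelled knock and 1 labelled control with 8 columns each. Columns of a sample are not replicates, so no difference was tested, and every interval below is a 95% interval of counting error alone.

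Columns held 153051 to 735871 counts in the knock cells and 41570 to 846819 in the control cells. In the 3' libraries they held 814960 to 1973137 counts in the one labelled knock and 399393 to 2496457 in the one labelled control. Over a whole group 3 counts made 0.855 and 0.777 CPM in the knock and control cells, and 0.327 and 0.424 CPM in the 3' libraries labelled knock and control. Rrm2 itself was at 350.1 CPM in the knock cells and 480.9 CPM in the control cells of CBTi-seq, but at 148.1 CPM in the 3' library labelled knock and 39.1 CPM in the one labelled control. Rrm2 thus goes against the labels of the 3' libraries, which are named by those labels throughout. Whether the labels are wrong was not tested. Of 12 fibroblast markers, 9 were at 20 CPM or more in both CBTi-seq groups, 7 in the 3' library labelled knock and 5 in the one labelled control. The summed level of 6 epithelial markers was 0.855 and 2.85 CPM in the knock and control cells and 122.7 and 194.8 CPM in the 3' libraries labelled knock and control. Only 1 of the 6 reached 20 CPM in each 3' library, and 2 and 4 were at 0 in those labelled knock and control. The summed level of 7 macrophage and blood markers was 24.2 and 48.9 CPM in the knock and control cells and 170.2 and 91.4 CPM in the 3' libraries labelled knock and control. Only 1 of the 7 reached 20 CPM in each 3' library and in the control cells, and 3 were at 0 in each 3' library. The fibroblast sum was 3462 and 3388 CPM in the knock and control cells and 6897 and 4371 CPM in those 3' libraries, and the part of these markers in the 3' ratios was not tested. Control cell 1, the shallowest column, stood apart in Bcl2l1, Mcl1 and the balance below, and its values are given there. It also sets the lowest control value of Bax and of Bid and the highest of Bcl2, from 4, 7 and 3 counts.

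In CBTi-seq, RNA of the effector Bax and of the anti-apoptotic Bcl2l1 was higher in the knock cells by like amounts, and the other members stood near or below their control level. None of the 7 members at the level limit was 2-fold or more higher or lower, where 0.536% of all 8391 genes at that level were higher and 2.42% lower. No member had columns without overlap between the groups, as 0.0596% of all genes did with the knock cells higher and 0.0715% with the knock cells lower. A log2 ratio above 0 was seen in 3 of the 7, against 44.7% of all genes. A log2 ratio of 0.5 or more, a limit chosen after the values were seen, was reached by Bax and Bcl2l1, against 5.64% of all genes. A log2 ratio of -0.5 or less was reached by none of the 7, against 13.8% of all genes. Their median log2 ratio was -0.03, beside -0.05 for all genes.

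The promoters of Bax and Bcl2l1, the members above a log2 ratio of 0.5 in CBTi-seq, and of Bcl2l11, the lowest, are shown to set what lies at their starts beside these levels. The windows run from 250 bases before to 50 bases after a RefSeq start (GRCm38.p6), 5′ to 3′ on the strand of the gene. Each start shown equals that of the gene in GENCODE vM21. Further RefSeq starts, not shown, lie 1011 and 3239 bases from it for Bcl2l1 and 1537 bases from it for Bcl2l11. Bax is at chr7:45466849-45467148 on the minus strand, Bcl2l1 at chr2:152831679-152831978 on the minus strand and Bcl2l11 at chr2:128125788-128126087 on the plus strand. Capitals mark a match to the p53 half-site.
Bax: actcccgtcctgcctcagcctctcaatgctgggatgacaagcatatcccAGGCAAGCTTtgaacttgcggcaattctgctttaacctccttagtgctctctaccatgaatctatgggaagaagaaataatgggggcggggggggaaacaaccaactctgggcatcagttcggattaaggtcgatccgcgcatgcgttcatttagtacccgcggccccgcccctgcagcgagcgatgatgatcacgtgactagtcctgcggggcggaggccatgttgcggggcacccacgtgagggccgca
Bcl2l1: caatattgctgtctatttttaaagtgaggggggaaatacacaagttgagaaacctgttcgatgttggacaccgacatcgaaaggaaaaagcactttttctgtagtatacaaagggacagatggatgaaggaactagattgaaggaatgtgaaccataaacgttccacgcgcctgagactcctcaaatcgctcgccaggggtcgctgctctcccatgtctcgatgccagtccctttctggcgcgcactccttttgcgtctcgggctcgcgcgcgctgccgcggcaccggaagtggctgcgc
Bcl2l11: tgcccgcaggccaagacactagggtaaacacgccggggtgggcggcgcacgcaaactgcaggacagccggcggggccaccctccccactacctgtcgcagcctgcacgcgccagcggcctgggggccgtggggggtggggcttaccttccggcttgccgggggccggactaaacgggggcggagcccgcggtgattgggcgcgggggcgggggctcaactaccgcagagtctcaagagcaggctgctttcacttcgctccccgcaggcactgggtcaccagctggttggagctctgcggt
The Bax window holds 1 match, AGGCAAGCTT, from 201 to 192 bases before the start. Among the 15 RefSeq windows of the 9 members searched it was the only match, and 8.36% of all 32851 mouse windows hold one. Pmaip1, named above as a p53 target, was not among the members searched. The motif TGATGNAA of the stress factor CHOP, searched on both strands, was in none of the 15 and in 3.97% of all windows. A match in these letters is a description and does not show that a factor binds there.

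Bax lies on chromosome 7 from 45461697 to 45466898 on the minus strand in GRCm38 (GENCODE vM21) and is protein coding, like all 10 genes. Its level ranged from 268.0 to 454.1 CPM over the knock cells (median 353.8) and from 96.2 to 313.4 CPM over the control cells (median 249.98). The groups overlapped, but 6 of the 10 knock cells lay above every control cell. Over the summed counts Bax was at 349.0 CPM in the knock cells and 238.7 CPM in the control cells, a log2 ratio of 0.55 (0.42 to 0.67). Bak1, the other effector, on chromosome 17 from 27019810 to 27029009, ranged from 59.9 to 154.9 CPM over the knock cells (median 92.6) and from 68.0 to 164.1 CPM over the control cells (median 94.0). Its groups covered nearly the same range, and its log2 ratio was -0.03 (-0.24 to 0.17).

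The BH3-only genes lie apart, Bad on chromosome 19 from 6941861 to 6951899, Bid on chromosome 6 from 120891930 to 120916853, Bbc3 on chromosome 7 from 16308393 to 16318205 and Bcl2l11 on chromosome 2 from 128126038 to 128162547. Bid and Bad were found in every CBTi-seq cell, and Bbc3 and Bcl2l11 were sparse. Bid, whose protein links death receptors to mitochondria once a caspase has cut it, ranged from 199.7 to 306.9 CPM over the knock cells (median 259.5) and from 168.4 to 293.1 CPM over the control cells (median 231.6). The groups overlapped almost wholly, with a log2 ratio of 0.05 (-0.09 to 0.18). Bad, which binds Bcl2l1 and Bcl2 and is held in the cytosol when phosphorylated, ranged from 60.5 to 106.0 CPM over the knock cells (median 76.6) and from 45.2 to 123.1 CPM over the control cells (median 81.9). Its log2 ratio was -0.26 (-0.50 to -0.02), and the knock cells lay wholly inside the range of the control cells. After thinning to 50000 counts a column, which leaves 40 and 30 counts, its ratio was 0.26.

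Bbc3 encodes Puma, a p53 target that binds all the anti-apoptotic proteins. It had 52 counts in the knock cells (14.8 CPM, 11.1 to 19.4) and 59 in the control cells (15.3 CPM, 11.6 to 19.7), with a log2 ratio of -0.04 (-0.61 to 0.52). A count was found in 8 of 10 knock cells and 9 of 10 control cells. Bcl2l11 encodes Bim, which can activate Bax directly. It had 24 counts in the knock cells (6.84 CPM) and 55 in the control cells (14.2 CPM), and single cells ranged from 0 to 31.0 CPM (median 6.12) and from 0 to 29.0 CPM (median 10.6). Its log2 ratio of -1.06 (-1.81 to -0.34) was the lowest of the members, but its level lies under the limit for a call. Without knock cell 2, the highest, it was -1.46, and with all columns weighing the same it was -0.60. At equal depth a count was found in 3 of 10 knock cells and 3 of 9 control cells. Pmaip1, which encodes Noxa, had no value in CBTi-seq, whose table lists genes with at least 1 count.

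The anti-apoptotic genes went different ways in CBTi-seq. Bcl2l1, whose long splice form Bcl-xL inhibits apoptosis while a short form promotes it, ranged from 134.0 to 476.9 CPM over the knock cells (median 248.9) and from 94.8 to 721.7 CPM over the control cells (median 190.6). The highest control value is control cell 1, and the next highest was 261.0 CPM. Summed, Bcl2l1 was at 293.1 CPM in the knock cells and 204.8 CPM in the control cells, a log2 ratio of 0.52 (0.38 to 0.65). With every column weighing the same the ratio was 0.21, and 0.58 when control cell 1 was also left out. Counts per gene do not separate its splice forms.

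Mcl1, an inhibitor whose protein is short-lived, ranged from 196.8 to 385.5 CPM over the knock cells (median 269.9) and from 244.1 to 986.3 CPM over the control cells (median 318.3). Control cell 1 was again the highest, and 4 of the 10 knock cells lay below every control cell. The log2 ratio was -0.20 (-0.32 to -0.07), and -0.45 with every column weighing the same, or -0.17 when control cell 1 was also left out. Bcl2, for which the family is named and which lies on chromosome 1 from 106538178 to 106714274, ranged from 6.53 to 55.6 CPM over the knock cells (median 24.0) and from 7.87 to 72.2 CPM over the control cells (median 43.8). Its log2 ratio was -0.38 (-0.76 to -0.01), which came to -0.12 without control cell 5, -0.77 with every column weighing the same and -0.89 after thinning to 12 and 20 counts.

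**Figure D1:**
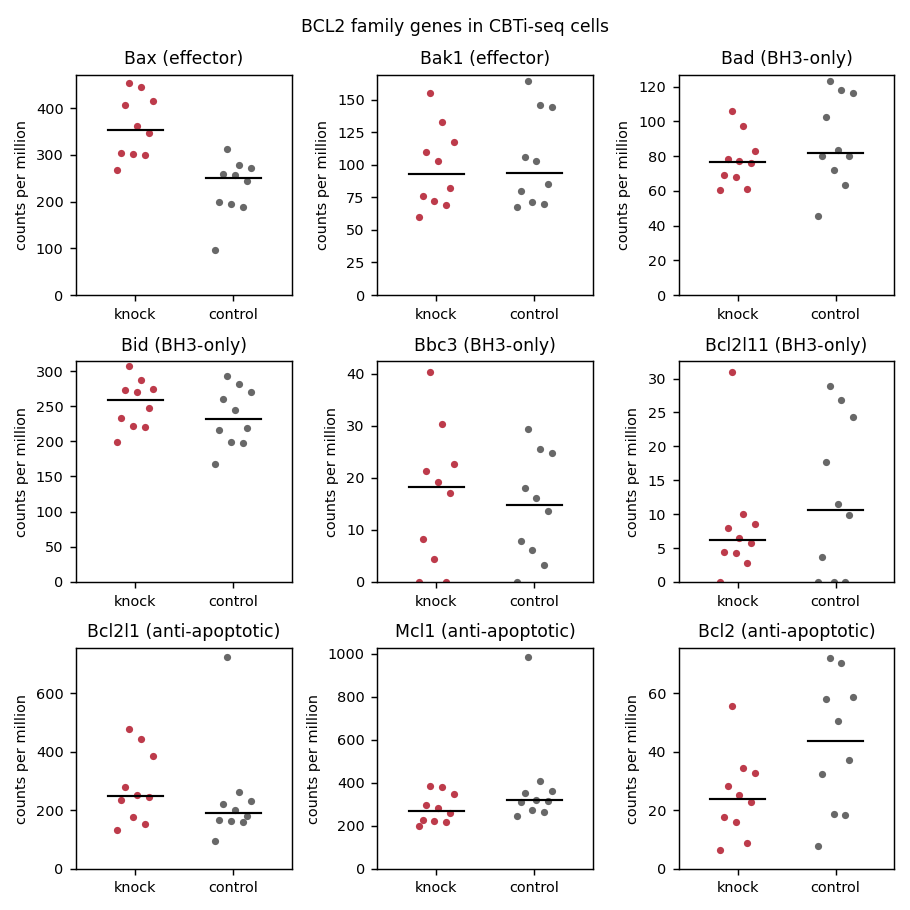
Level of 9 BCL2 family genes in CBTi-seq, in CPM on linear axes from 0, with 1 point per cell for 10 knock and 10 control cells and a bar at the median. Bax has 6 knock cells above every control cell, and control cell 1 is the point at 721.7 CPM for Bcl2l1 and 986.3 CPM for Mcl1.

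The members differed in how much they varied from cell to cell. Among knock cells the coefficient of variation of Bcl2l1 was 42.9%, where counting error alone would give 11.2%, and that of Bax was 18.6% beside 9.82%. Bid varied by 13.5% beside 11.7%, little more than counting. Mcl1 lay between, at 24.7% beside 11.1%. Over all genes at 20 CPM or more the median was 35.5% beside 23.8%. Among control cells Bcl2l1 reached 73.1% and Mcl1 56.6%, both with control cell 1 in the group.

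In the 3' libraries all 8 members with a count were higher in the library labelled knock, the anti-apoptotic genes and Bad by more than Bax and Bid. Of the 5 at the level limit, Bad, Bcl2l1 and Mcl1 were 2-fold or more higher, where 17.3% of all 5701 genes at that level were higher and 5.68% lower by that much. With Bid, 4 of the 5 reached a log2 ratio of 0.5, against 34.1% of all genes, and none reached -0.5, against 18.2%. The same 3 had columns that did not overlap between the libraries, where 21.2% of all genes had columns wholly higher and 8.02% wholly lower. None of the 5 was lower, while 58.8% of all genes had a log2 ratio above 0. Their median log2 ratio was 1.14, beside 0.18 for all genes.

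Bax had 263.8 to 346.7 CPM in the columns of the library labelled knock (median 306.5) and 215.4 to 308.0 CPM in those of the library labelled control (median 253.8). These ranges overlapped, and the log2 ratio of 0.25 (0.17 to 0.34) was near the 0.18 of the median gene and came to 0.10 under TMM and median-of-ratios scaling. Bax shares its strand with the 3' end of the annotated gene Gm45808, which had 126 and 45 counts in the libraries labelled knock and control. Bak1 was at 0 in all 16 columns, although CBTi-seq put it at 106.5 CPM over all cells. Against 0.185 CPM, the level of 3 counts over both 3' libraries, CBTi-seq was at least 576-fold higher. The 5198 genes with at least 50 CPM over the CBTi-seq cells included 5.27% that lacked any 3' count. Bak1 lies inside Ggnbp1 on the opposite strand, which had 3 and 0 counts in the 3' libraries labelled knock and control, and whether the overlap bears on the missing counts was not tested.

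Bad had 98.2 to 125.5 CPM in the columns of the library labelled knock (median 120.3) and 28.1 to 73.3 CPM in those of the library labelled control (median 52.9), a log2 ratio of 1.14 (0.97 to 1.32). Every column labelled knock lay above every column labelled control. Under TMM and median-of-ratios scaling its ratio was 0.99, just under 2-fold. Bad overlaps Gpr137 head to head on the opposite strand, which had 333 and 123 counts in the libraries labelled knock and control. Bid had 78.8 to 118.7 CPM (median 104.4) in the library labelled knock and 49.6 to 92.6 CPM (median 68.9) in the library labelled control, with a log2 ratio of 0.57 (0.42 to 0.73) and 6 of 8 columns above every column labelled control. Bid overlaps its relative Bcl2l13 on the opposite strand at the 3' end.

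Of the rare BH3-only genes, Bbc3 had 32 counts in 8 of 8 columns labelled knock and 2 counts in 2 of 8 columns labelled control. The ratio was 12.3-fold with an interval of 3.15 to 106, so its size is poorly known. Bcl2l11 had 109 counts (11.9 CPM) in the library labelled knock and 23 counts (3.25 CPM) in the library labelled control, a log2 ratio of 1.87 (1.21 to 2.59). It was seen in 8 of 8 columns labelled knock and 7 of 8 labelled control, and at equal depth in 1 and 2 of 8. Thinned to 50000 counts a column, Bbc3 had 5 counts and 0, and Bcl2l11 had 1 count and 2, too few to order the libraries. Pmaip1 was at 0 in all 16 columns, where 3 counts would make 0.327 and 0.424 CPM in the libraries labelled knock and control. That level covers counting error only, and Bak1 was at 0 in the same columns.

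Bcl2l1, on chromosome 2 from 152780668 to 152831728 on the minus strand, had 146.0 to 191.3 CPM in the columns labelled knock (median 174.9) and 29.6 to 82.6 CPM in those labelled control (median 48.3). The log2 ratio was 1.83 (1.66 to 2.00), the highest of the members at the level limit. Mcl1, on chromosome 3 from 95658788 to 95663176, had 133.4 to 198.1 CPM in the columns labelled knock (median 171.4) and 42.6 to 67.6 CPM in those labelled control (median 56.5), a log2 ratio of 1.53 (1.37 to 1.69). Bcl2 had 13.3 to 29.4 CPM (median 23.4) in the library labelled knock and 1.22 to 12.4 CPM (median 9.34) in the library labelled control, a log2 ratio of 1.58 (1.13 to 2.04) at a level under the limit. For all 3 anti-apoptotic genes the columns labelled knock lay wholly higher, as they did for 21.2% of all genes at 20 CPM or more, a level Bcl2 did not reach. No other annotated gene overlaps Bcl2l1 or Mcl1.

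**Figure D2:**
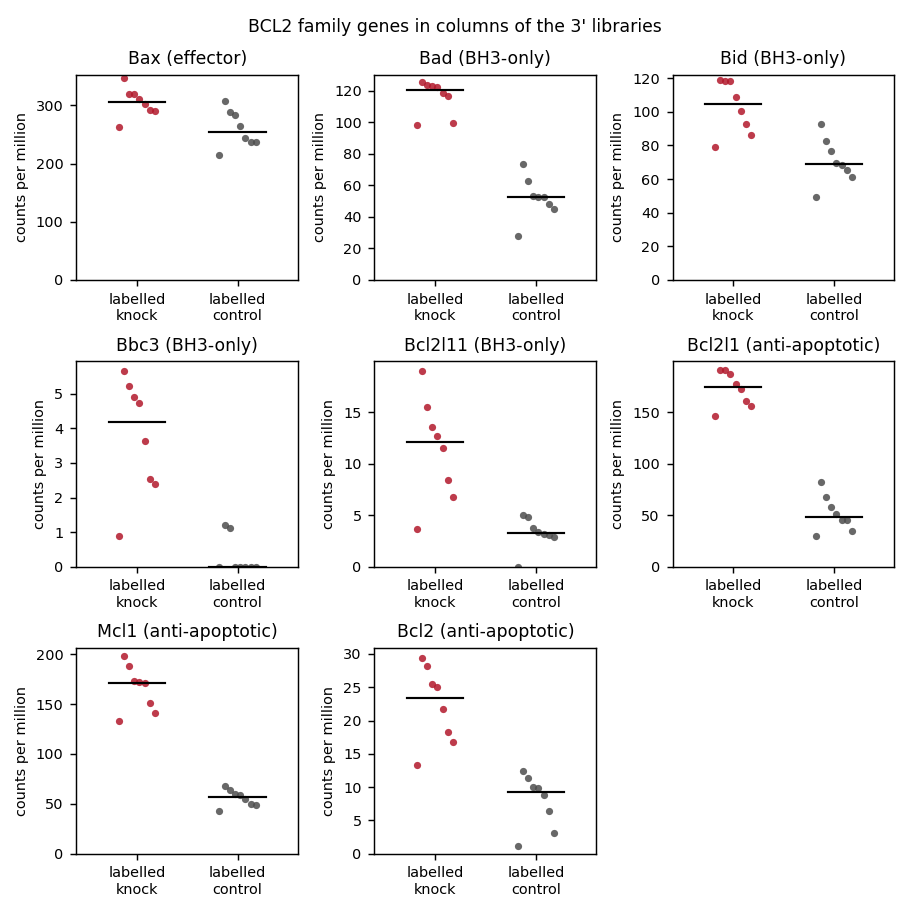
Level of 8 BCL2 family genes in the 3' libraries, in CPM on linear axes from 0, with 1 point for each of the 8 columns of a library and a bar at the median. Bcl2l1, Mcl1, Bcl2 and Bad separate the libraries wholly, where 21.2% of all genes at 20 CPM or more lie wholly higher in the library labelled knock. Bax overlaps at 263.8 to 346.7 CPM in the library labelled knock and 215.4 to 308.0 CPM in the library labelled control.

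Set side by side for the 8 members with a ratio in both assays, Bax, Bcl2l1 and Bid had ratios above 0 in each, while Bad, Bbc3, Bcl2l11, Mcl1 and Bcl2 had ratios below 0 in CBTi-seq and above 0 by the 3' method. For Bid, Bbc3 and Bak1 the CBTi-seq interval includes 0, and Bbc3 and Bak1 turned positive there under TMM and median-of-ratios scaling, so their direction is not known. The contrasts share no control sample, but the 3' direction rests on labels that Rrm2 goes against. With these labels exchanged, Bad, Bbc3, Bcl2l11, Mcl1 and Bcl2 would have ratios below 0 in both assays, and Bax, Bcl2l1 and Bid would differ in sign. Other pathway genes, given below, include some with the same sign in both assays and some with opposite signs. An exchange of labels was not tested.

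**Figure D3:**
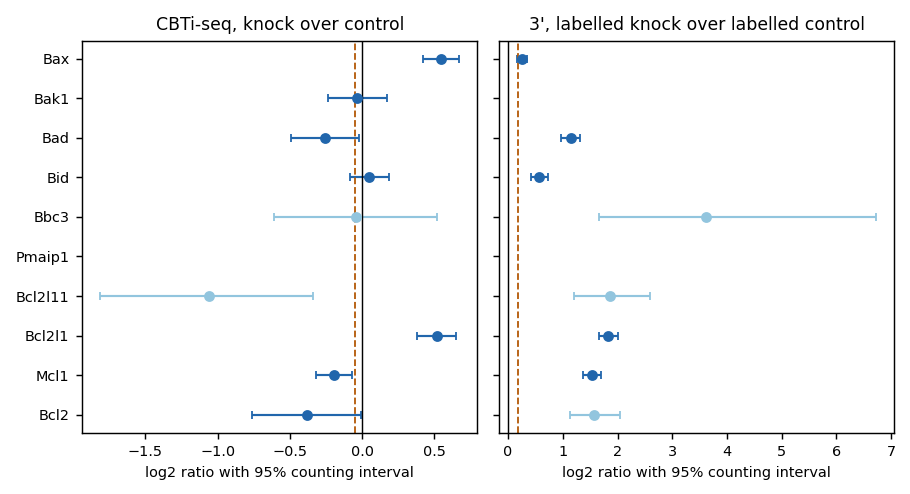
Log2 ratio of knock over control for each member with its 95% counting interval, in CBTi-seq on the left and in the 3' libraries on the right, whose axes differ in scale. Dark points reach 20 CPM on average and light points do not, the solid line is at 0 and the dashed line marks the median of all genes (-0.05 and 0.18). Bax and Bcl2l1 are the dark points to the right in CBTi-seq, at 0.55 and 0.52.

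The balance of pro- to anti-apoptotic counts differed between the CBTi-seq groups by an amount whose counting interval included 0, and was lower in the 3' library labelled knock. In CBTi-seq the 6 pro-apoptotic genes with counts made up 57.1% of the family's counts in the knock cells (55.7% to 58.5%) and 55.7% in the control cells (54.3% to 57.1%). Single cells ranged from 50.1% to 68.6% (median 56.9%) in the knock group and from 21.3% to 62.3% (median 56.4%) in the control group. Control cell 1, at 21.3% from 20 pro-apoptotic and 74 anti-apoptotic counts, lay far below the next at 50.0%. The log2 ratio of pro- to anti-apoptotic counts differed by 0.08 (-0.03 to 0.20) between the knock and control cells. Its sign is not settled: the difference was -0.15 without Bax, -0.11 with every member weighing the same, -0.46 without Bax and Mcl1, and 0.44 with every column weighing the same. Summed pro-apoptotic RNA was at 798.1 CPM in the knock cells and 704.8 CPM in the control cells, and summed anti-apoptotic RNA at 599.4 and 560.1 CPM. Effectors were at 454.2 and 346.5 CPM, and BH3-only genes at 343.9 and 358.4 CPM in the knock and control cells.

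In the 3' libraries the pro-apoptotic share was 59.9% in the one labelled knock (58.9% to 61.0%) and 77.2% in the one labelled control (75.8% to 78.6%). Bak1 had no 3' count, so this share rests on fewer genes than that of CBTi-seq. Columns ranged from 56.9% to 61.4% in the library labelled knock and from 73.3% to 81.4% in the library labelled control, with no overlap. The log2 ratio of pro- to anti-apoptotic counts was lower by 1.18 in the library labelled knock, a difference of -1.18 (-1.31 to -1.05). Both sides were higher there: pro-apoptotic RNA was at 544.2 and 385.9 CPM, and anti-apoptotic RNA at 363.6 and 114.0 CPM, in the libraries labelled knock and control. The share leans on Bax, which held 2842 of the 4986 pro-apoptotic counts in the library labelled knock and 1841 of the 2727 in the library labelled control. Without Bax the difference was -0.77, and with every member weighing the same it was -0.15. Without Bax, Bad and Bid, which leaves Bbc3 and Bcl2l11 on the pro-apoptotic side, it was 0.45.

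**Figure D4:**
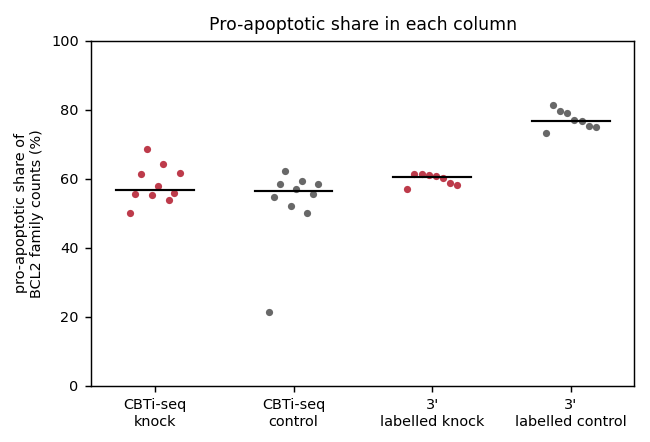
Share of pro-apoptotic genes among the counts of the family, in percent, with 1 point per column and a bar at the median. The CBTi-seq groups overlap, with control cell 1 at 21.3% far below the other cells and the highest knock cell at 68.6%, and the columns of the 3' library labelled knock (56.9% to 61.4%) lie below those of the library labelled control (73.3% to 81.4%).

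Levels of different members were compared per kilobase of the longest annotated transcript, since counts may grow with length. On that scale Bax was the highest member in both assays, at 317.3 CPM per kilobase in the knock cells and 217.0 in the control cells, and at 282.0 and 236.8 CPM per kilobase in the 3' libraries labelled knock and control. In the knock cells Bcl2l1 (114.1), Bid (102.2) and Mcl1 (81.2 CPM per kilobase) followed within the spread of their cells, then Bad (49.1) and Bak1 (44.1). Bbc3 at 8.17, Bcl2 at 4.00 and Bcl2l11 at 1.36 CPM per kilobase were far lower. The longest transcripts run from 1100 bases for Bax to 7191 bases for Bcl2, so this scale favours Bax. Whether counts grow with length in either assay was not tested. In plain CPM Mcl1 was above Bax in the control cells (317.7 and 238.7 CPM) and below it in the knock cells (277.4 and 349.0 CPM). Bax was also the highest member in plain CPM in the 3' libraries labelled knock and control, at 310.2 and 260.5 CPM.

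Among other genes of the pathway, CBTi-seq showed p53 target genes higher and BCL2 relatives, led by Bnip3 and Bnip3l, lower in the knock cells. Of 10 p53 targets with roles beyond apoptosis, 8 reached 20 CPM and 7 of these were higher, against 44.7% of all genes, with a median log2 ratio of 0.74. Of the 8, 2 were 2-fold or more higher, against 0.536% of all genes. Here Ccng1, a cyclin-like p53 target, was at 176.2 CPM in the knock cells and 98.1 CPM in the control cells, a log2 ratio of 0.84 (0.66 to 1.03), while Zmat3, Plk2 and Cdkn1a were at 1.26, 1.05 and 0.98. This list was chosen with its direction in these data known, and it gives no support to the values of Bax. Of the 17 regulators 16 reached the limit and 14 were higher, where 44.7% of all genes had a log2 ratio above 0, and the median over the 16 was 0.16. Trp53, the gene of p53 itself, was at 231.0 CPM in the knock cells and 157.4 CPM in the control cells (log2 ratio 0.55, 0.40 to 0.71). Mdm2, the ligase that destroys p53, had a log2 ratio of 0.39 (0.19 to 0.59), Ddit3, which encodes CHOP, of 0.89 (0.74 to 1.04), and Usp9x, a deubiquitinase that stabilises Mcl1 protein, of 0.52 (0.11 to 0.93).

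All 6 other family members at the limit in CBTi-seq were lower in the knock cells, by a median of -0.38, where 44.7% of all genes had a log2 ratio above 0. Of the 6, 1 was lower 2-fold or more, where 2.42% of all genes were. This was Bnip3, a hypoxia-inducible mitophagy receptor, at 177.6 CPM in the knock cells and 413.8 CPM in the control cells (log2 ratio -1.22, -1.36 to -1.09). Its relative Bnip3l had a log2 ratio of -0.56 (-0.70 to -0.42), the anti-apoptotic Bcl2l2 of -0.51 (-1.001 to -0.03) and Bcl2l13 of -0.24 (-0.52 to 0.03). For the rest of the 6, as for Bcl2l13, the interval included 0. Of 14 genes of the apoptosome and caspases 9 reached the limit, with 3 higher and 6 lower and a median of -0.31, a split near that of all genes, of which 44.7% were above 0. The initiator Casp9 had a log2 ratio of -0.52 (-0.96 to -0.09), Casp6 of -0.44 (-0.80 to -0.08), Casp2 of -0.43 (-0.81 to -0.06) and Casp8 of -0.33 (-0.58 to -0.08). Genes of mitochondrial release and of caspase inhibitors had a median of 0.06 with 8 of 10 higher, against 44.7% of all genes. Several of the 8 were near 0, with intervals that included it. The protease Htra2, which acts on caspase inhibitors once set free, was at 216.1 CPM in the knock cells and 130.2 CPM in the control cells (log2 ratio 0.73, 0.57 to 0.90), Diablo had a log2 ratio of 0.46 (0.15 to 0.77), Birc5 of 0.25 (0.13 to 0.37) and Endog of 0.21 (-0.06 to 0.48).

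In the 3' libraries the same lists were more mixed, around an all-gene median of 0.18. Bok, an effector-like relative of Bax, was at 47.8 CPM in the library labelled knock and 11.3 CPM in the one labelled control (log2 ratio 2.08, 1.73 to 2.44), while Bcl2l13 and Bnip3l were lower, at -0.98 (-1.23 to -0.72) and -0.70 (-0.82 to -0.58). These were the 3 of that list at the limit. Of 7 apoptosome and caspase genes 3 were higher and 4 lower, beside 58.8% of all genes above 0, with a median of -0.14. Apaf1, the scaffold of the apoptosome, was at 80.5 CPM in the library labelled knock and 136.5 CPM in the one labelled control (log2 ratio -0.76, -0.90 to -0.62), and Casp6 had a log2 ratio of -1.36 (-1.66 to -1.07), while Cycs, which encodes cytochrome c, had one of 0.38 (0.33 to 0.43).

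Birc5, which encodes the mitotic protein survivin, had a log2 ratio of 1.44 (1.32 to 1.55) in the 3' libraries, Vdac1 of 0.27 (0.17 to 0.38), Birc6 of -0.45 (-0.58 to -0.32) and Aifm1 of -1.05 (-1.27 to -0.84), in a list of 6 with a median of 0.17. Of the regulators 8 of 12 were higher, near the 58.8% of all genes above 0, with a median of 0.30. Mdm2 was at 1.30 (1.08 to 1.52), Huwe1, a ligase of Mcl1, at 1.02 (0.74 to 1.32) and Dynll1, a dynein light chain that binds Bcl2l11 and Bmf, at 0.98 (0.90 to 1.06), while Ddit3 was at -0.87 (-0.99 to -0.75). Of the p53 targets 5 of 7 were higher, beside the same 58.8%, with a median of 0.66, led by Zmat3 at 1.12 and Cdkn1a at 0.95, while Gadd45a was at -1.40 and Sesn2 at -1.17. Trp53 itself, looked up after its CBTi-seq value was seen, had a 3' log2 ratio of 0.03 (-0.14 to 0.19), which gives no direction.

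**Figure D5:**
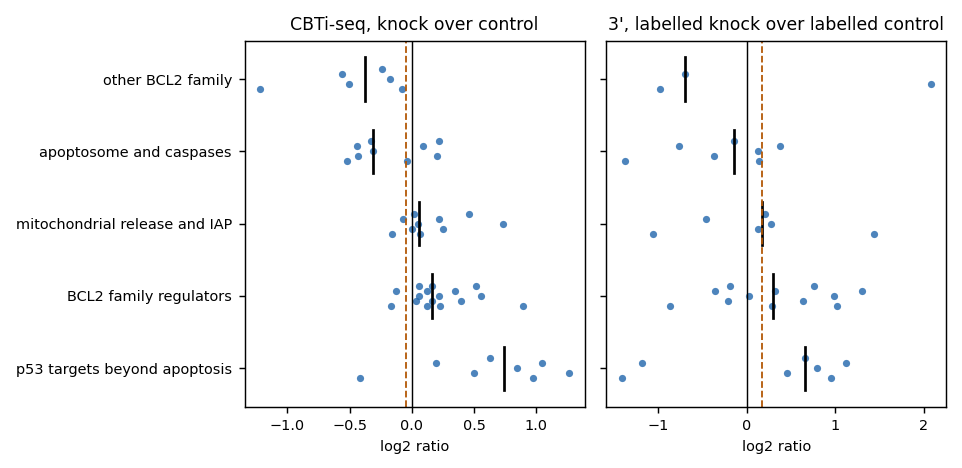
Log2 ratio of knock over control for other apoptosis and p53 genes at 20 CPM or more, 1 point per gene, in CBTi-seq on the left and the 3' libraries on the right, whose axes differ in scale. The short bars are list medians and the dashed line is the median of all genes. The p53 targets have medians of 0.74 and 0.66, and the other BCL2 relatives of -0.38 and -0.70.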

How the data were processed

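RNA of L929 mouse fibroblasts was read in 3 samples by CBTi-seq or a 3' method. The deposited values are whole-number counts per gene and column; the authors applied no normalization to them. FastQC, Picard and STAR 2.7.11b, and the builds GRCm38 and GRCh38 without their roles, are named per the submitters' processing notes. No source used here names what counted the reads, whether strand was used or whether UMIs stand behind the 3' values. The column map covered every column, and no columns of a table were identical.

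Ensembl IDs of the 3' tables were paired with symbols through GENCODE vM21 (55141 of 55402 IDs), and rows of the same symbol were added up. CPM are the summed counts of all columns in a group per 1e6 of their total. Levels have exact Poisson 95% intervals, ratios exact conditional ones and shares exact Clopper-Pearson ones, which cover counting error only. With 1 sample a group, and both CBTi-seq groups in 1 sample, no test was made, and columns are not replicates. A replicated count test could not be fitted, and edgeR 4.0.16 and DESeq2 1.42.0 gave scaling factors only. A ratio was called 2-fold apart by size, at a mean of at least 20 CPM over the groups. No doublet caller was run on these few columns. The calculation was tested on simulated counts.

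The members, the lists of other pathway genes and the limits were chosen with earlier results of these data known. All members were named, and from each list up to 4 genes with the largest ratios at 20 CPM or more. The value of 1 gene that this rule names is not reported here. No gene was named for a pattern like a member's. Alternatives changed the scaling, the weight of columns and members, the depth, the level limit and UMI collisions. Scripts ran in Python 3.11.15 with pandas 2.3.3 and numpy 2.4.6, plots in matplotlib 3.10.9, intervals in scipy 1.17.1 and scaling in R 4.3.3.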

Additional observations from a re-analysis of the deposited data

Results flagged for a closer look

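Control cell 1 of CBTi-seq, with 41570 counts, stood apart from the other 9 control cells in 3 values: Mcl1 at 986.3 CPM, Bcl2l1 at 721.7 CPM, and the balance, with a log2 ratio of pro- to anti-apoptotic counts of -1.89. These were the only such values among 28 sets of columns examined. The limit used gives about 1 in 20 by chance where columns have equal depth. This cell is the shallowest, so that rate does not apply to it. The 3 flags are also not independent, since the balance holds the Mcl1 and Bcl2l1 counts. The columns of a set are cells of 1 sample and not samples.

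Bad, Bbc3, Bcl2l11, Mcl1 and Bcl2 had log2 ratios below 0 in CBTi-seq and above 0 in the 3' libraries, and the difference itself was not tested. For Bbc3 and Bid the CBTi-seq direction is not known, and Bad was at 0.26 in CBTi-seq after thinning. With the 3' labels exchanged the ratios of these 5 over the summed counts would be below 0 in both assays. Those of Bax and Bcl2l1 would differ in sign, as would that of Bid, whose CBTi-seq interval includes 0. The 3' log2 ratio exceeded that of CBTi-seq by 1.40 for Bad, 3.67 for Bbc3, 2.93 for Bcl2l11, 1.73 for Mcl1 and 1.96 for Bcl2. The 3' difference in balance between knock and control, less that of CBTi-seq, was -1.26. Bak1 adds counts to the CBTi-seq balance only, whose difference without it was 0.12, an alternative chosen after seeing the data. With Bak1, the CBTi-seq difference has an interval that includes 0 and turns sign under several alternatives, so no opposite direction is shown.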

How the results depend on the processing

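No paired analysis was possible because each group is 1 sample or part of 1 sample, and the numbers of columns do not pair them. In CBTi-seq the median of the members stayed between -0.09 and 0.04 under 11 alternatives and between -0.22 and 0.06 when single columns were left out. The balance there was 0.44 with every column weighing the same, but 0.10 when control cell 1 was also left out (an alternative chosen after seeing the data). It was -0.46 without Bax and Mcl1, -0.11 with members weighing the same and, chosen after seeing the data, -0.15 without Bax and -0.21 without Bax, Bad and Bid. Without single columns it was 0.02 to 0.15. The count of members 2-fold apart was 1 (Bcl2l11) with a limit of 5 CPM or none, and 0 without any single column.

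In the 3' libraries the median was 1.53 with a limit of 5 CPM, 1.55 with none and 0.75 after thinning, and 1.08 to 1.20 without single columns. The balance was -1.51 after thinning, -0.64 without Bax and Bcl2l1, -0.15 with members weighing the same, and, chosen after seeing the data, -0.77 without Bax and 0.45 without Bax, Bad and Bid, which reverses it; the causes were not tested. Without single columns it was -1.20 to -1.14. Members 2-fold apart were 5 and 6 with limits of 5 CPM and none, 2 under TMM and median-of-ratios factors, and 3 without any single column. TMM moved the all-gene median to 0.02, and all 8 members remained higher. Depth limits Bbc3 and Bcl2l11 most.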
